A study of Homo sapiens with 6 samples.

Results

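The 10 genes described here are FOXO1, FOXO3 and FOXO4, which encode forkhead transcription factors, and PIK3IP1, SESN1, SESN3, KLHL24, BCL6, CCNG2 and BCL2L11, which FOXO factors are known to induce when AKT signalling falls. They were taken by symbol from the 63140 genes of a count table, each symbol matched 1 row, and all 10 passed the filter on low counts. The table held 6 RNA sequencing libraries of HEK293 cells, an established human line derived from embryonic kidney. Confluent cells in medium with 10% serum received 100 nM GSK-A1 for 24 h (3 libraries) or the solvent dimethyl sulfoxide, DMSO (3 libraries), and the labels call the 3 libraries of a group biological replicates. The labels name the same line for both groups and no genetic change in either. GSK-A1 inhibits PI4KA, the kinase that makes most of the phosphatidylinositol monophosphate of the plasma membrane.

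That lipid is a source of the bisphosphate which PI3-kinases convert into the signal that recruits AKT to the membrane. Active AKT phosphorylates FOXO factors, proteins of the YWHA family then bind them, and the complex is held in the cytoplasm, so that FOXO target genes fall silent. When AKT activity drops, FOXO factors enter the nucleus and switch on genes of growth arrest, stress resistance, autophagy and cell death, and genes that restrain or restore growth factor signalling. This control acts on the protein, so a level of FOXO mRNA does not report FOXO activity. The question put to the data was which of these genes rose or fell under the inhibitor.

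Of the 10 genes, FOXO4 and KLHL24 rose, 1.15-fold and 1.14-fold, and SESN1 fell, to 0.888 of its DMSO level. In whole cultures, fewer cells making an mRNA and less of it per cell cannot be told apart. The other 7 genes did not pass the threshold, which was a Benjamini-Hochberg adjusted p under 0.05 in edgeR's quasi-likelihood test over all 16754 genes tested. Of the 10 genes, 3 were called, beside 22.9% of all tested genes. By direction, 2 were called higher, beside 12.0% of all genes, and 1 lower, beside 10.9%. The median log2 fold change was -0.04 over the 10 genes and -0.01 over all tested genes.

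Library totals ranged from 33040178 to 47777233 counts, and TMM factors from 0.993 to 1.00. PI4KA mRNA, whose protein is the drug's target, was 185 ± 5 CPM (counts per 1000000 counts of the library after TMM scaling; mean ± SD, n = 3) in DMSO libraries against 179 ± 7 in treated ones, and it was not called. Among 6 genes looked for as marks of the line, NEFL (713 to 794 CPM), LIN28B (106 to 143), GATA3 (4.44 to 5.55) and PAX2 (1.93 to 2.78) were present, whereas INA and NEFM were at or under 0.381 CPM. Of 10 genes of other cell types, COL1A1 was at 4.86 to 7.24 CPM and the other 9 at or under 0.176, and their sum was 6.92 to 7.48 with DMSO and 5.04 to 7.08 with GSK-A1. GSK-A1 replicate 2 stood apart by its effect on the calls. Without it 4890 genes were called in place of 3835, against 2163 to 3805 when any other library was left out. It was singled out from these same data, and values without this library are given as a description wherever they change a call. The split of calls by direction moved with the scaling: 52.3% of the called genes were higher under TMM factors, 55.0% under RLE factors and 33.3% under upper-quartile factors. It was 62.5% with DESeq2, which differs in its test and filter as well.

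The promoters of 4 of the genes are printed because they hold a forkhead or insulin response core; FOXO4 and KLHL24 were called higher, and PIK3IP1 and BCL2L11 were not called. Windows reach from 250 bases before to 50 bases after a RefSeq start and are read 5′ to 3′ on the gene's strand, in lower case with matches in capitals (RefSeq, GRCh38.p14). The forkhead core searched was GTAAACA, which reads as TGTTTAC when it lies on the opposite strand. The insulin response core searched was CAAAACA, which reads as TGTTTTG when it lies on the opposite strand. Both strands were searched. The motifs share their last 5 letters but cannot match at the same place. The FOXO4 window is chrX:71095601-71095900 (plus strand), that of KLHL24 chr3:183635373-183635672 (plus), that of PIK3IP1 chr22:31292439-31292738 (minus) and that of BCL2L11 chr2:111120664-111120963 (plus).
FOXO4: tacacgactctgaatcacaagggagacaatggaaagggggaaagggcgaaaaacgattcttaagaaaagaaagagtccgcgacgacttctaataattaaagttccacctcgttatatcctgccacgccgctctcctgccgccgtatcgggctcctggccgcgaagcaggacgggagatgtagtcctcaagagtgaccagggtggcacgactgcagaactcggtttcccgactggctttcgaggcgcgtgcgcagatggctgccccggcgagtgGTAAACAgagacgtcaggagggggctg
KLHL24: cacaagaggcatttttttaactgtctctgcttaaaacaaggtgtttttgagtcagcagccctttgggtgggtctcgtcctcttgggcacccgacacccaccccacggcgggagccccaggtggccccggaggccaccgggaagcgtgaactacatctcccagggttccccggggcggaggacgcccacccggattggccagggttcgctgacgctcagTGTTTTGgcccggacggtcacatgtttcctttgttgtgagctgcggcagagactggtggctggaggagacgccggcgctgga
PIK3IP1: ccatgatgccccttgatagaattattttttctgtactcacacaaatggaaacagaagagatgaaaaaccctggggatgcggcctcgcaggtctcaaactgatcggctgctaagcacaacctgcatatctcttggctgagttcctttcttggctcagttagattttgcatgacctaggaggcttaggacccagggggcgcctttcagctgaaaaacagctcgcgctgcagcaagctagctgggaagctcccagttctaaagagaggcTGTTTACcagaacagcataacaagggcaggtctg
BCL2L11: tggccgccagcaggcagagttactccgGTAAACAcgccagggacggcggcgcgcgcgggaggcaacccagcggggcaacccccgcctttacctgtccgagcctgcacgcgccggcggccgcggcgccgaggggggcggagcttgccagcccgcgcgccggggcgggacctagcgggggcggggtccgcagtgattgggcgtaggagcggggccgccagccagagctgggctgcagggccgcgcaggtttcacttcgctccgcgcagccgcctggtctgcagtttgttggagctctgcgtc

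In FOXO4 the forkhead core begins at base 24 of the RefSeq transcript, counted from its start. GENCODE, the source of the gene coordinates below, starts FOXO4 at chrX:71096197, past the end of this window. By GENCODE the FOXO4 core thus lies before the gene, so these positions depend on the annotation. In PIK3IP1 the forkhead core begins at base 17 of the transcript, counted from the RefSeq start, and lies on the opposite strand. The other PIK3IP1 window, chr22:31292485-31292784, largely overlaps this one and holds no core because it ends before reaching that site. In BCL2L11 the core begins 223 bases before the RefSeq start. GENCODE starts BCL2L11 at chr2:111119378, before the window, and so places this core within the gene. The KLHL24 window holds no forkhead core. Its insulin response core, on the opposite strand, begins 32 bases before the RefSeq start. GENCODE starts KLHL24 at chr3:183635568, before that core, and so places it within the gene. A forkhead core was thus present for 3 of the 10 genes, against 4.19% of the 27305 genes with a window and 3.42% of the 35116 windows. Genes with several starts have several windows, and the 10 genes have 17. A match is a description of the sequence and not a binding site, and binding was not measured.

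Among the factors themselves, FOXO4 was the one called; no test compared the factors with each other. FOXO4 (ENSG00000184481, chrX:71096197-71103535, plus strand; gene coordinates are those of GENCODE 29, GRCh38) measured 33.9, 32.7 and 33.3 CPM across DMSO replicates 1 to 3, against 38.5, 36.9 and 39.1 CPM across GSK-A1 replicates 1 to 3. All 3 treated libraries lay above all 3 controls. Its log2 fold change came to 0.20 ± 0.05 (SE; 95% interval 0.10 to 0.30; edgeR adjusted p = 0.00622). The call held under each of the 16 alternatives, where the change ranged from 0.16 to 0.23 and the adjusted p reached 0.0465.

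FOXO3 (ENSG00000118689, chr6:108559835-108684774, plus strand), the most abundant of the factors, stood at 104, 105 and 106 CPM with DMSO and at 104, 108 and 102 CPM with GSK-A1. The groups overlapped, with the highest and the lowest library both among the treated ones. On the log2 scale the change was -0.0031 ± 0.04 (SE, edgeR adjusted p = 0.964), and its 95% interval of -0.08 to 0.08 lies below the value fitted for FOXO4. The processed pseudogene FOXO3B holds 16.5% of the 50-base stretches of the longest FOXO3 transcript, so reads could be split or lost between these genes. FOXO3B itself went from 18.9 ± 0.4 to 17.7 ± 1.0 CPM (SD, n = 3) and was not called (log2 fold change -0.10, edgeR adjusted p = 0.243).

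FOXO1 (ENSG00000150907, chr13:40469953-40666597, minus strand), the factor best known for the control of insulin-responsive genes, was at 13.4, 15.4 and 13.9 CPM with DMSO and at 13.8, 16.1 and 14.4 CPM with GSK-A1. Replicate 2 was the highest library of either group, and the groups overlapped. The fitted change was 0.05 ± 0.08 on the log2 scale (SE; 95% interval -0.11 to 0.21; edgeR adjusted p = 0.687). FOXO6, the remaining family member, went from 6.69 ± 0.75 to 5.92 ± 0.29 CPM (SD, n = 3) and was not called (log2 fold change -0.19, edgeR adjusted p = 0.169).

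**Figure D1:**
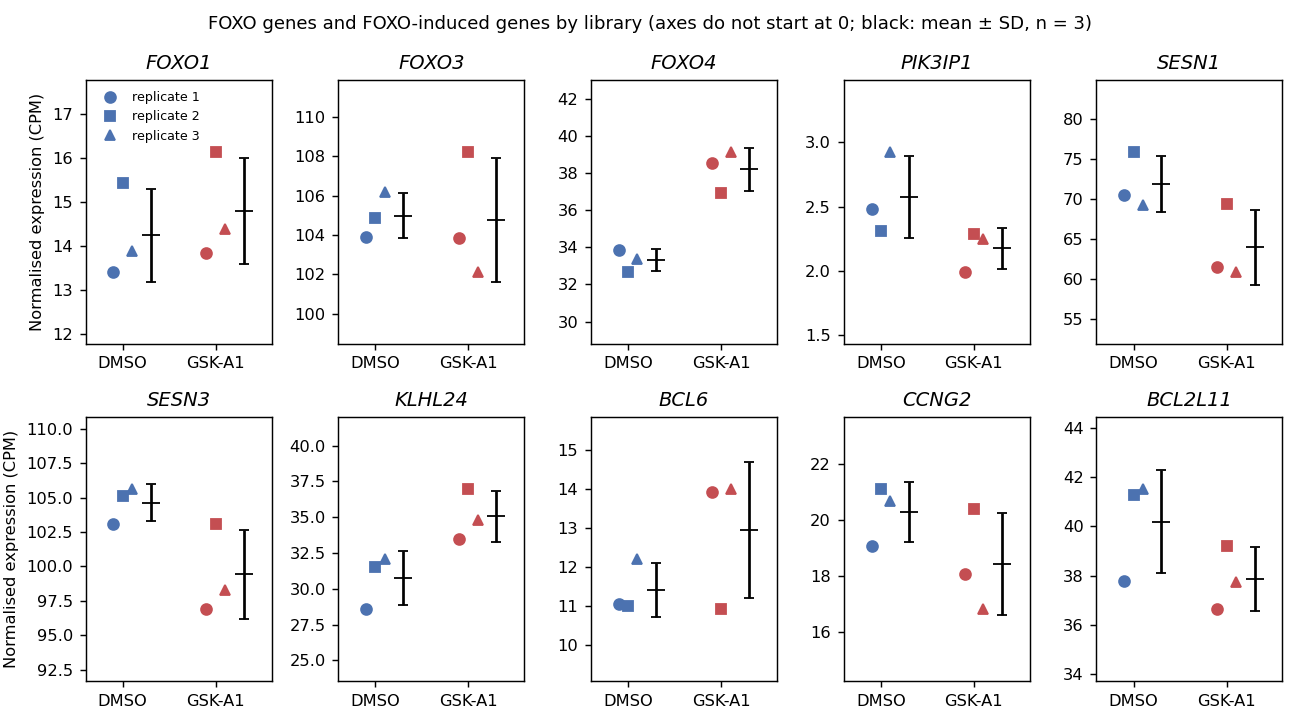
Normalised expression (CPM, y axis, not starting at 0) of the 10 genes in each DMSO (blue) and GSK-A1 (red) library, with symbols for replicates 1 to 3 and black bars for mean ± SD (n = 3). The treated libraries lie wholly above the controls for FOXO4 and KLHL24 and wholly below them for PIK3IP1 and SESN3, and GSK-A1 replicate 2 departs from the other treated libraries for BCL6.

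The balance of the FOXO mRNAs was read as each gene's share of the summed FOXO1, FOXO3 and FOXO4 counts, a measure that library scaling cannot move. FOXO4 took 22.4%, 21.4% and 21.7% of these counts in DMSO replicates 1 to 3 and 24.7%, 22.9% and 25.1% in GSK-A1 replicates 1 to 3. FOXO3 took 68.7%, 68.5% and 69.2% with DMSO and 66.5%, 67.1% and 65.6% with GSK-A1. Neither gene's groups overlapped: the FOXO4 share was 2.39 percentage points higher and the FOXO3 share 2.42 points lower with GSK-A1. For both the exact two-sided permutation p was 0.1 (n = 3 per group), the smallest that 3 against 3 libraries can give, and the Benjamini-Hochberg value over the 3 shares was 0.15. The 3 shares of a library add up to the whole, so these are not separate results. With the FOXO1 share nearly level, the lower FOXO3 share mirrors the higher FOXO4 share. Mean FOXO3 expression was 105.0 CPM with DMSO and 104.7 CPM with GSK-A1. The FOXO1 share was 9.34% ± 0.66 in controls against 9.37% ± 0.59 in treated libraries (SD, n = 3; exact permutation p = 1). In GSK-A1 replicate 2, the library nearest the controls, the exact 95% binomial interval of the FOXO4 share was 21.8% to 24.0%. It overlapped the intervals of DMSO replicates 1 (21.5% to 23.4%), 2 (20.4% to 22.3%) and 3 (20.6% to 22.9%). These intervals leave out the variation between cultures. The libraries had no molecular identifiers, so repeated reads of the same molecule could make the intervals too narrow even for counting error.

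**Figure D2:**
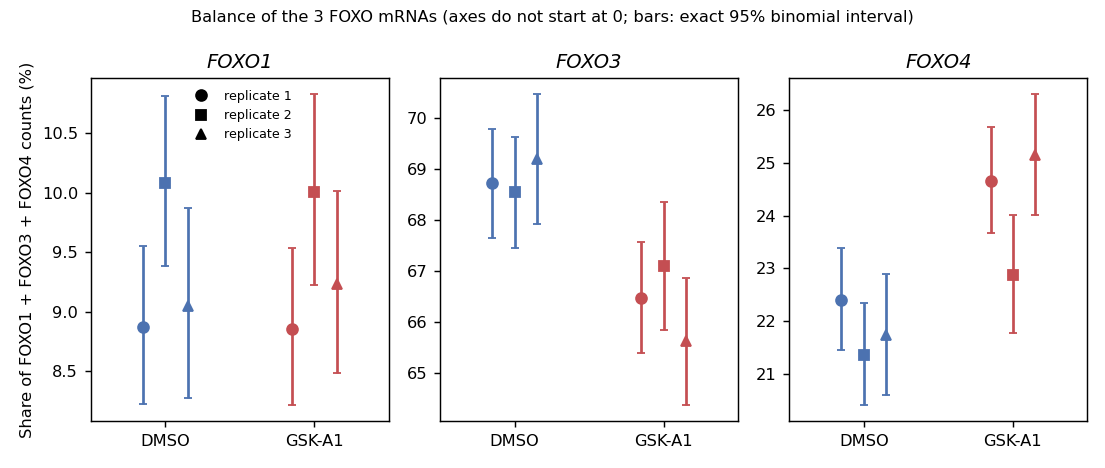
Share of the summed FOXO1, FOXO3 and FOXO4 counts taken by each gene (%, y axis, not starting at 0) in each library, with exact 95% binomial intervals as bars and symbols for replicates 1 to 3. The FOXO4 share is 21.4% to 22.4% in the DMSO libraries and 22.9% to 25.1% in the GSK-A1 libraries, and the FOXO3 share is lower in every GSK-A1 library than in every DMSO library. The shares of a library add up to the whole, so these differences are not independent.

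Of the targets that restrain growth signalling, none was called higher. PIK3IP1 (ENSG00000100100, chr22:31281593-31292534, minus strand) encodes a membrane protein that inhibits PI3-kinase. It was the scarcest of the 10 genes, at 2.48, 2.31 and 2.93 CPM with DMSO and 2.00, 2.28 and 2.25 CPM with GSK-A1, from 78 to 119 counts per library. The treated libraries lay below the controls, by a narrow gap between GSK-A1 replicate 2 and DMSO replicate 2. Its log2 fold change of -0.23 ± 0.13 (SE; 95% interval -0.52 to 0.05; edgeR adjusted p = 0.222) was not distinguishable from 0 at this depth. It was -0.15 without DMSO replicate 3.

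Sestrins are stress-induced proteins that restrain the growth kinase complex built on MTOR, and SESN1 is induced by p53 as well as by FOXO factors. SESN1 (ENSG00000080546, chr6:108986437-109094819, minus strand) was at 70.5, 75.9 and 69.3 CPM with DMSO and at 61.5, 69.4 and 60.9 CPM with GSK-A1. The groups overlapped, since GSK-A1 replicate 2 lay just above DMSO replicate 3. SESN1 changed by -0.17 ± 0.05 on the log2 scale (SE; 95% interval -0.28 to -0.06; edgeR adjusted p = 0.0283). Without GSK-A1 replicate 2 it was -0.23 (edgeR adjusted p = 2.14e-06), and leaving out any one of DMSO replicates 1, 2 and 3 or GSK-A1 replicates 1 and 3 ended the call (edgeR adjusted p from 0.0529 to 0.167).

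SESN3 (ENSG00000149212, chr11:95165513-95232541, minus strand) was at 103, 105 and 106 CPM with DMSO and at 96.9, 103 and 98.3 CPM with GSK-A1. All treated libraries lay below all controls, GSK-A1 replicate 2 by the least. Its change of -0.07 ± 0.04 on the log2 scale (SE; edgeR adjusted p = 0.185) was not called. SESN3 was called lower when GSK-A1 replicate 2 was left out (-0.10, adjusted p by edgeR = 0.0187), with upper-quartile scaling (-0.11, edgeR adjusted p = 0.0361) and with the trend on GC content removed (-0.16, edgeR adjusted p = 8.14e-04). Without GSK-A1 replicate 1 its change was -0.05 (edgeR adjusted p = 0.522). SESN2, the sestrin linked to the ATF4 stress response, fell from 113 ± 2 to 97.5 ± 1.0 CPM (SD, n = 3; log2 fold change -0.21 ± 0.04, SE; edgeR adjusted p = 8.77e-04). The fitted changes of all 3 sestrins were below 0, with SESN3 not called and the SESN1 call lost when most single libraries were left out.

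SESN1 lies 0.302 megabases from FOXO3 on chromosome 6, and the fitted changes of these neighbours were -0.17 and -0.0031 on the log2 scale. Antisense genes cover 7.09% of the exonic length of SESN1 and 0.880% of that of SESN3. Each antisense partner was at or under 0.266 CPM, and the strand setting of the counting is not given in the sources used here.

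KLHL24, an adaptor of a ubiquitin ligase, was the target called higher with all 6 libraries. It (ENSG00000114796, chr3:183635568-183684477, plus strand) was at 28.6, 31.5 and 32.1 CPM with DMSO and at 33.4, 37.0 and 34.8 CPM with GSK-A1. All treated libraries lay above all controls. KLHL24 rose by 0.19 ± 0.06 on the log2 scale (SE; 95% interval 0.07 to 0.31; edgeR adjusted p = 0.0224). That call ended without DMSO replicate 1 (0.14, edgeR adjusted p = 0.143) or DMSO replicate 2 (0.21, 0.0582), under upper-quartile factors (0.15, 0.0612) and with the GC trend removed (0.10, 0.134). The longest KLHL24 transcript has a GC content of 36.7%, the lowest among the 10 genes.

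BCL6, a transcriptional repressor that FOXO factors induce in lymphocytes and other cells, depended on a single library for its call. BCL6 (ENSG00000113916, chr3:187721377-187745727, minus strand) was at 11.1, 10.99 and 12.2 CPM with DMSO and at 13.9, 10.9 and 14.01 CPM with GSK-A1. GSK-A1 replicate 2 was the lowest of all 6 libraries, and the other treated libraries were above every control. BCL6 differed by 0.19 ± 0.09 on the log2 scale (SE; edgeR adjusted p = 0.123) with all libraries and by 0.30 ± 0.07 (edgeR adjusted p = 3.71e-04) without GSK-A1 replicate 2. BCL6 and KLHL24 are both on chromosome 3, 4.04 megabases apart. The BCL6 paralog BCL6B had 1 to 10 counts per library and was not tested.

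CCNG2 encodes an unconventional cyclin that slows the cell cycle and is widely used as a FOXO target. CCNG2 (ENSG00000138764, chr4:77157151-77433388, plus strand) was at 19.1, 21.1 and 20.7 CPM with DMSO and at 18.1, 20.4 and 16.8 CPM with GSK-A1. The groups overlapped through GSK-A1 replicate 2. In log2 terms it differed by -0.14 ± 0.07 (SE; edgeR adjusted p = 0.163), and CCNG2 was called lower without GSK-A1 replicate 2 (-0.21, edgeR adjusted p = 0.00509) and after correction for GC content (-0.18, edgeR adjusted p = 0.0254). Without GSK-A1 replicate 3 the change was -0.08 (edgeR adjusted p = 0.468). Its paralog CCNG1, a p53 target, stood at 469 ± 21 and 478 ± 39 CPM (SD, n = 3; log2 fold change 0.03, edgeR adjusted p = 0.749), a direction that turned under upper-quartile factors (-0.014) and with the GC trend removed (-0.05).

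BCL2L11 encodes BIM, a cell death activator of the BH3-only class that FOXO3 is known to induce. BCL2L11 (ENSG00000153094, chr2:111119378-111168447, plus strand) was at 37.8, 41.3 and 41.5 CPM with DMSO and at 36.6, 39.2 and 37.8 CPM with GSK-A1. The groups overlapped because DMSO replicate 1 lay within the range of the treated libraries. Its fitted log2 change was -0.09 ± 0.05 (SE, edgeR adjusted p = 0.241), and the 95% interval was -0.19 to 0.02. Leaving out DMSO replicate 1 gave -0.13, and leaving out GSK-A1 replicate 1 gave -0.05. MIR4435-2HG, a long noncoding gene at 18.1 CPM, covers 10.9% of its exonic length on the opposite strand.

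**Figure D3:**
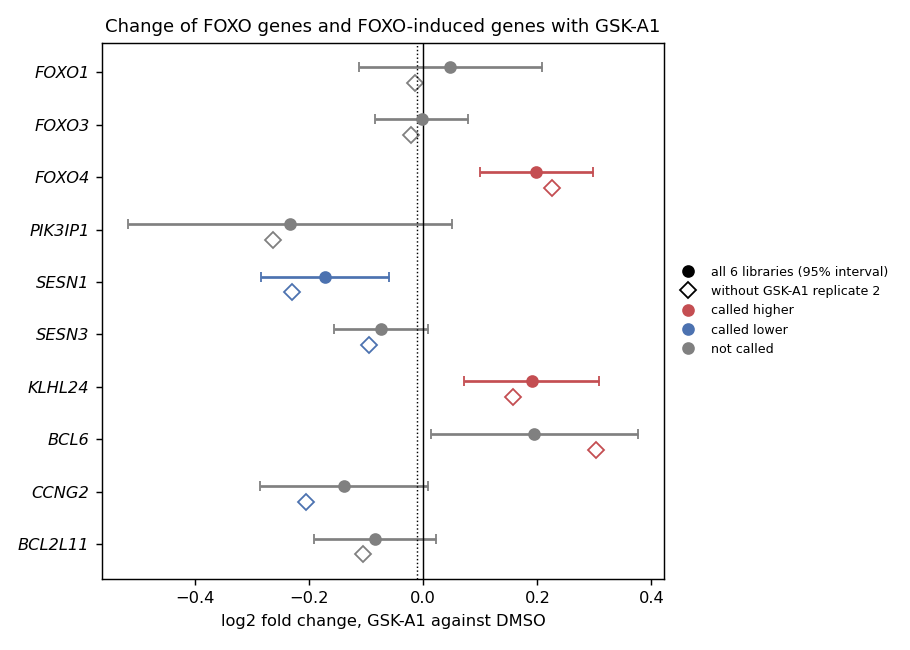
Log2 fold change of GSK-A1 against DMSO (x axis) for the 10 genes, with all 6 libraries (filled circles, bars for the 95% interval) and without GSK-A1 replicate 2 (open diamonds), coloured by the edgeR call; the dotted line is the median of all tested genes, -0.01. Of the 10 genes, 3 are called with all libraries and 6 without GSK-A1 replicate 2, among which BCL6 stands at 0.30 and CCNG2 at -0.21. GSK-A1 replicate 2 was singled out from these same data.

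With GSK-A1 replicate 2 left out, FOXO4, KLHL24 and BCL6 were called higher, and SESN1, SESN3 and CCNG2 were called lower. That library was singled out from these same data, so the calls without it are a description and no separate evidence. Of the 10 genes, 3 were called higher without GSK-A1 replicate 2, beside 15.2% of all genes tested in that fit. Another 3 were called lower, beside 12.9%, with 28.1% of all genes called in either direction. No setting run called PIK3IP1, BCL2L11, FOXO1 or FOXO3. Over all 6 libraries the treated and control libraries did not overlap for 4 of the 10 genes, 2 above (20.2% of all tested genes) and 2 below (20.4%), beside 40.5% of all genes in either direction.

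Levels were compared between genes as CPM per kilobase of exon, with the summed length of all annotated exons from GENCODE 29. The longest single transcript is shorter by unlike amounts, 3509 against 5121 bases for SESN1 and 7341 against 7721 for FOXO3. The order of the genes and the overlaps of their ranges therefore hold for this choice of length, and no other was run. With DMSO, SESN1 (14.0 ± 0.7) and FOXO3 (13.6 ± 0.1) were highest and overlapped in range, followed by SESN3 (9.89 ± 0.13) and FOXO4 (9.66 ± 0.17), which overlapped as well (SD, n = 3). Below them came BCL2L11 (6.04 ± 0.32), KLHL24 (3.55 ± 0.22), CCNG2 (2.71 ± 0.14), FOXO1 (2.29 ± 0.17), BCL6 (1.92 ± 0.12) and PIK3IP1 (0.676 ± 0.084), and none of these ranges overlapped its neighbour. With GSK-A1 the level of FOXO4 (11.1 ± 0.3) lay above that of SESN3 (9.40 ± 0.31) with no overlap, and CCNG2, FOXO1 and BCL6 overlapped one another. FOXO4 thus took 37.8% ± 0.8 of the FOXO1, FOXO3 and FOXO4 counts per kilobase with DMSO and 41.0% ± 1.6 with GSK-A1, a larger share than by counts because its exons are the shortest of the 3.

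**Figure D4:**
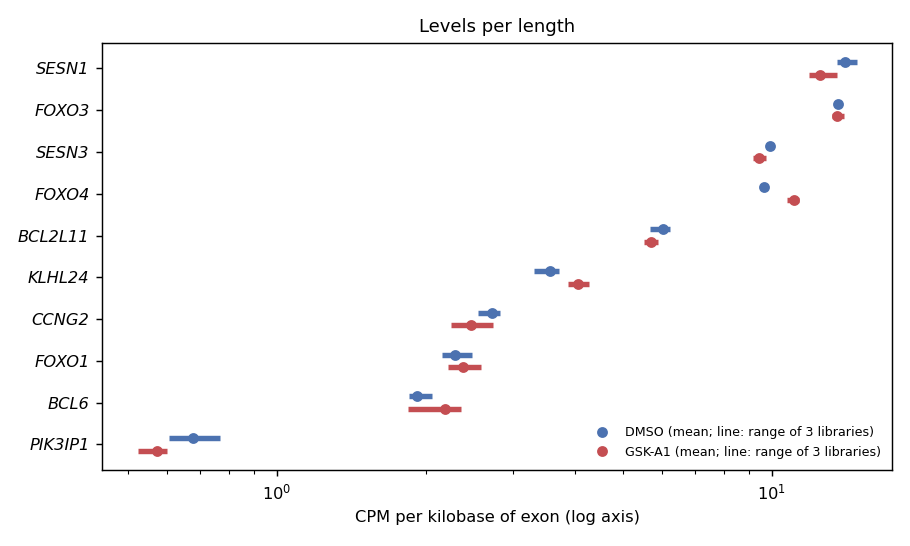
Level of each of the 10 genes as CPM per kilobase of exon (x axis, log scale) with DMSO (blue) and GSK-A1 (red), with points for means and lines for the range of 3 libraries. With lengths summed over all annotated exons, SESN1 and FOXO3 are highest and PIK3IP1 is lowest at under 1. With the same lengths FOXO4 moves from the range of SESN3 with DMSO to above it with GSK-A1.

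Other genes that FOXO factors are known to induce were read from a list of 32, of which 26 passed the count filter and PDK4, TRIM63, TNFSF10, FASLG, G6PC1 and IGFBP1 did not. In this list 11 of 26 genes were called higher, beside 12.0% of all tested genes, and 3 lower, beside 10.9%, and the median change was 0.12 on the log2 scale. This list and those below were chosen with earlier results of these data known, so their counts are a description and no separate evidence. GABARAPL1, a protein of the autophagosome, rose from 50.8 ± 0.3 to 74.3 ± 1.0 CPM (SD, n = 3; log2 fold change 0.55 ± 0.04, SE; edgeR adjusted p = 1.17e-07). CDKN1A, the inhibitor p21 of cyclin-dependent kinases, rose from 79.1 ± 2.4 to 109.9 ± 2.3 CPM (0.47 ± 0.04; edgeR adjusted p = 6.71e-07), and TRIB1, a pseudokinase, rose from 81.0 ± 2.1 to 102.6 ± 2.7 CPM (0.34 ± 0.04). GADD45A, FBXO32, BBC3, MAP1LC3B, IRS2, MXI1, INSR and RBL2 were the other genes called higher, by 0.13 to 0.43 on the log2 scale.

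The 3 genes of that list called lower were TXNIP, an inhibitor of thioredoxin and glucose uptake (-0.40 ± 0.10), SESN2 (-0.21 ± 0.04) and CITED2, a transcriptional coregulator (-0.20 ± 0.05; log2 fold change ± SE). The TXNIP call was lost without DMSO replicate 3 or any 1 of the GSK-A1 replicates (edgeR adjusted p from 0.0584 to 0.112), and with no filter beyond 1 count in total (edgeR adjusted p = 0.166). CDKN1B, the inhibitor p27 and a classical FOXO target, was at 74.1 ± 1.6 and 72.9 ± 4.0 CPM (SD, n = 3; -0.03 ± 0.05, SE) and was not called. SOD2 (0.02 ± 0.04) and CAT (-0.10 ± 0.06), antioxidant enzymes, were not called either. These 3 and the smaller rises of the list were named after their values were seen. Many of these genes have other inducers, and FOXO binding was not measured.

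**Figure D5:**
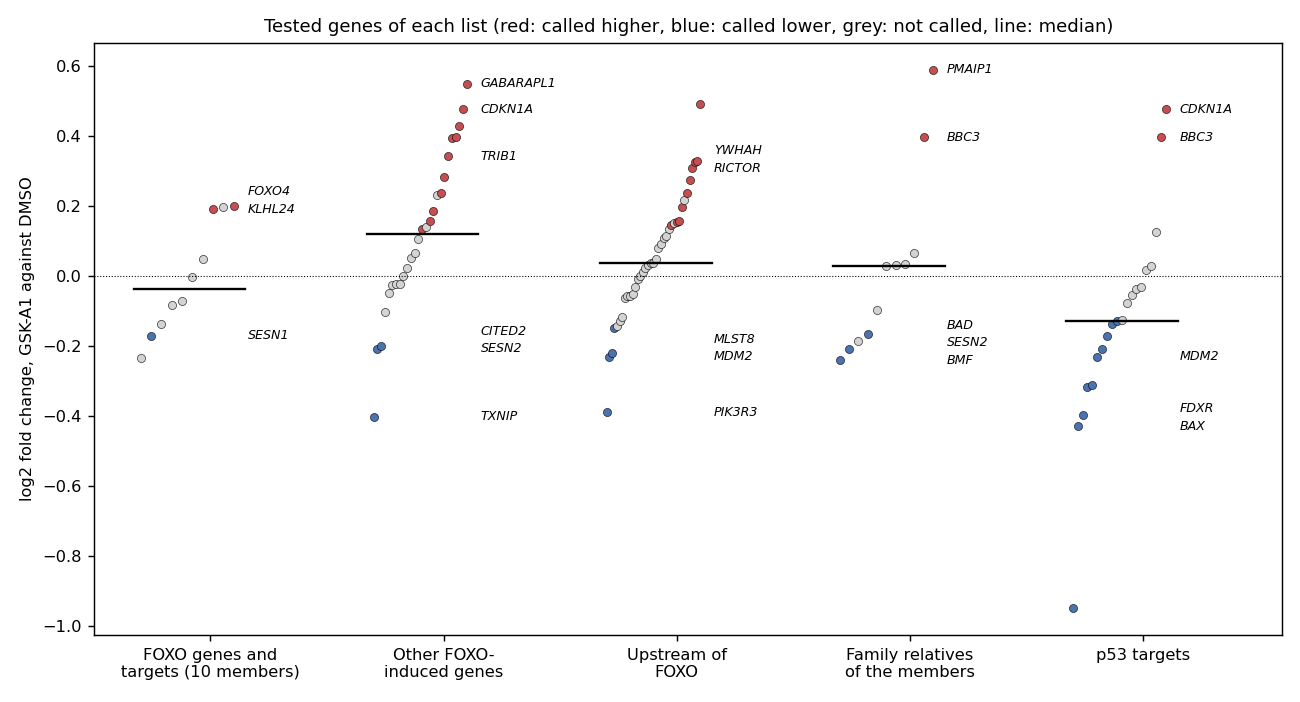
Log2 fold change of GSK-A1 against DMSO (y axis) for each tested gene of 5 lists, ordered by value, with a line at each list's median. Written at the right are the called members and, for each other list and direction, up to 3 called genes with the smallest p-values. Other called genes carry no name. The other FOXO-induced genes have 11 called higher and 3 called lower, and p53 targets have 2 called higher and 10 lower. The lists were chosen with earlier results of these data known.

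Upstream of FOXO, a list of 37 receptors, kinases, phosphatases and partner proteins was tested in full, with 10 genes called higher (12.0% of all tested genes) and 4 lower (10.9% of all), and the median change was 0.04 on the log2 scale. The 4 of 37 called lower are near the share over all genes. YWHAH, a protein that binds phosphorylated FOXO factors, rose from 103 ± 1 to 129.5 ± 9.6 CPM (SD, n = 3; log2 fold change 0.33 ± 0.05, SE; edgeR adjusted p = 1.53e-04). RICTOR, a subunit of the kinase complex that activates AKT, rose by 0.31 ± 0.05. MLST8 (-0.22 ± 0.04) and MTOR (-0.15 ± 0.04), other subunits of that complex, were called lower, and the subunit MAPKAP1 was not called. AKT1 (-0.05 ± 0.04) and AKT2 (-0.13 ± 0.07), kinases that phosphorylate FOXO factors, were not called. The remaining AKT gene of the list is not reported here, so these values do not describe the AKT mRNAs as a group. PIK3R3, a regulatory subunit of PI3-kinase, fell from 53.2 ± 2.3 to 40.5 ± 1.4 CPM (-0.39 ± 0.05; edgeR adjusted p = 3.62e-05). PIK3CA, a catalytic subunit, was called higher (0.32 ± 0.06), and PIK3CB, PIK3R1 and PIK3R2 were not called. MDM2, a ubiquitin ligase of p53 and FOXO factors, changed by -0.23 ± 0.04. INSR (0.16 ± 0.05), IGF1R (0.20 ± 0.04) and IRS2 (0.24 ± 0.06), the insulin receptor, the related growth factor receptor and their adaptor, were called higher. IRS1, the other adaptor of the list, was not called (-0.14 ± 0.09). AKT1, AKT2, MTOR, MAPKAP1, the PI3-kinase genes other than PIK3R3, the adaptors and the receptor genes were named after their values were seen.

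Relatives of the 10 genes numbered 12, with 11 tested, 2 called higher (12.0% of all tested genes) and 3 lower (10.9% of all), and their median change was 0.03 on the log2 scale. Those called were SESN2 and 4 BH3-only genes. PMAIP1, which encodes NOXA, rose from 317 ± 14 to 476 ± 53 CPM (SD, n = 3; log2 fold change 0.59 ± 0.08, SE; edgeR adjusted p = 0.00134), and BBC3, which encodes PUMA, rose from 35.9 ± 0.7 to 47.2 ± 1.8 CPM (0.40 ± 0.05; edgeR adjusted p = 2.38e-05). BMF fell from 37.9 ± 1.5 to 32.0 ± 0.9 CPM (-0.24 ± 0.05; edgeR adjusted p = 0.00231). BAD changed by -0.17 ± 0.05, a call lost with DESeq2, with the GC trend removed and without any one library other than GSK-A1 replicate 2. BH3-only genes thus included members called in either direction, beside BCL2L11, which was not called.

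Because SESN1 is also a p53 target, 20 p53 targets were read, SESN1 among them. All were tested, 2 were called higher, near the 12.0% of all tested genes, and 10 lower, beside 10.9% of all, and the median change was -0.13 on the log2 scale. BAX (68.3 ± 2.0 to 50.6 ± 3.1 CPM; -0.43 ± 0.05, SE) and FDXR (29.6 ± 0.6 to 22.4 ± 0.9 CPM; -0.40 ± 0.05) fell along with MDM2, and CDKN1A and BBC3 were the 2 called higher. This list shares CDKN1A, BBC3 and SESN2 with the other FOXO-induced genes, and SESN1 with the members. Both sestrins were called lower (SESN2 -0.21, SESN1 -0.17). Of 3 genes that FOXO factors are known to repress, MYC (0.28 ± 0.03; edgeR adjusted p = 4.92e-05) and CCND2 (0.24 ± 0.05; edgeR adjusted p = 0.00159) rose and CCND1 (0.0059 ± 0.03) was not called.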

How the data were processed

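Per the labels' protocols, RNA was purified from frozen cells, made into libraries with a stranded kit and sequenced on an Illumina HiSeq instrument. The submitters' processing notes name cutadapt 5.1, STAR 2.7.11b, featureCounts (Subread 2.1.1), DESeq2 1.38.0 and build GRCh38.p13, with no role, annotation or strand setting. The authors deposited raw counts per gene, whole and not normalized.

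Genes were kept by filterByExpr (smallest count 10, smallest total 15), scaled by TMM factors and tested with edgeR 4.0.16 (quasi-likelihood F test, robust, legacy off) in R 4.3.3, all 6 libraries, DMSO against GSK-A1. The adjusted p covers all tested genes. SE is the unshrunken log2 coefficient over the root of its F statistic, and 95% intervals use the fit's degrees of freedom. limma 3.58.1 (voom) and DESeq2 1.42.0 were alternatives, with other factors, filters, a replicate block, a stricter threshold and each library left out. The GC correction (per-library loess trend as an offset, GC known for 96.1% of tested genes) was added after the data were seen. The code was tested on simulated data.

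The members and lists were chosen with earlier results of these data known. Named genes were the members, their relatives FOXO6, FOXO3B, SESN2, CCNG1 and BCL6B, GABARAPL1, and up to 3 called genes per list and direction with the smallest p-values and a mean of at least 1 CPM, except 1 gene that is not reported here. SOD2 took its symbol from a table of gene names. P-values measure the spread between cultures labelled as biological replicates.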

Additional observations from a re-analysis of the deposited data

How the results depend on the processing

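Calls were made again under 16 settings. Leaving out 1 library gave 2163 to 4890 called genes over the whole table, 1 to 3 of the 10 members called higher and 0 to 3 called lower. An adjusted p under 0.01 left 1871 genes, 1 member higher (6.31% of all genes) and 0 lower (4.85%). Upper-quartile factors gave 1 member higher (7.99% of all genes) and 2 lower (16.04%), and removal of the GC trend gave 1 higher (13.5%) and 3 lower (12.6%). Counts of called genes in the 5 other lists stayed within 1.5 times of those reported under every setting.

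FOXO4 kept its direction and its call in all 16. FOXO3, whose change was nearest 0, had the opposite sign under RLE factors (0.0034), with no filter (0.0057) and with DESeq2 (0.0083), and lay between -0.022 and 0.018 with 1 library left out. FOXO1 ranged from -0.014 to 0.11 with 1 library left out. CCNG1 turned under upper-quartile factors (-0.014), on removal of the GC trend (-0.052) and within its range of -0.038 to 0.069 with 1 library left out. The FOXO1 share of FOXO counts, 0.030 percentage points higher with GSK-A1, was -0.17 points per kilobase and -0.29 to 0.40 points with 1 library left out, whereas the FOXO3 and FOXO4 shares kept their direction. The cause of these turns was not tested.

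Whether replicate numbers pair the libraries was not settled. Deviations of same-numbered libraries correlated at 0.011, 0.019 and 0.032 over genes, and those of differently numbered ones at -0.033 to 0.012. Each library correlated best with its own number except GSK-A1 replicate 1, which was at 0.012 with DMSO replicate 2. The replicate block gave 4127 called genes in place of 3835 and changed no member's call. With the block the edgeR adjusted p of SESN1 was 0.00573, against 0.0283 without it. PIK3IP1, at 2.57 and 2.18 CPM, was the member most limited by depth.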

Other observations

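Forkhead cores were also looked for in the promoter windows of the other lists. Among the other FOXO-induced genes, HBP1, MXI1 and TXNIP held GTAAACA in a promoter window, 3 of the 24 with a window, and PIK3CA was 1 of 32 upstream genes with one. Of the p53 targets, GDF15 held it, 1 of 17, and of the relatives 0 of 10 did. MXI1, a repressor in the MYC network, was called higher (0.18 ± 0.04, log2 fold change ± SE), as was PIK3CA (0.32 ± 0.06). TXNIP was called lower (-0.40 ± 0.10), and HBP1 (0.14 ± 0.06) and GDF15 (-0.13 ± 0.18) were not called. Over the table, 412 tested genes held the core in a window, of which 19.4% were called higher and 11.2% lower. Of the 11411 tested genes with windows and no core, 13.2% were called higher and 11.5% lower. These shares are given as a description and were not tested.

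SGK1, a kinase related to AKT that phosphorylates FOXO3, had the largest change of the 37 upstream genes, which was noticed after its value was seen. It stood at 7.11, 5.36 and 6.70 CPM with DMSO and at 8.45, 10.08 and 8.46 CPM with GSK-A1. All treated libraries lay above all controls, with GSK-A1 replicate 2 the highest (log2 fold change 0.49 ± 0.11, SE; edgeR adjusted p = 0.00394). Its paralog SGK3 was at 7.01 ± 0.35 and 8.22 ± 1.05 CPM (SD, n = 3) and was not called (0.22 ± 0.09; edgeR adjusted p = 0.104).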
